A study of Mus musculus with 10 samples.

Results

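The 10 genes described here are the macrophage polarization markers Nos2, Arg1, Il6, Il10, Il10ra, Il4ra, Cd86, Cd80, Socs3 and Chil3, taken by symbol from the 24421 gene symbols of the count files. Microglia had been isolated from the cortex of 9-month-old mice by papain dissociation and an Optiprep density gradient, and each of the 10 libraries held total RNA of microglia pooled from 2 mice. WT denotes wild-type mice (3 libraries), and APP/PS1 denotes mice that over-express human APP695swe and presenilin-1 M146V and form amyloid plaques (4 libraries). The study describes these APP/PS1 mice as injected with vehicle, which the labels do not state. APP/PS1+N-AS denotes APP/PS1 mice given N-acetyl sphingosine (N-AS) subcutaneously for 8 weeks, starting at 7 months, with 30 mg per kg each day (3 libraries). The promoters that drive the transgenes are not given in the sources used here, and the labels describe separation by density with no sort of the cells.

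Macrophages and microglia change their gene programs with the signals they meet, and the members stand for the ends and the brakes of that range. Interferon gamma and bacterial products induce the type 1 genes Nos2 and Il6 and raise the T cell co-stimulatory ligands Cd80 and Cd86. Interleukin-4 (IL-4) signals through Il4ra and induces Arg1 and Chil3, the classical type 2 genes in mice, whereas interleukin-10 (IL-10) signals through Il10ra and induces Socs3, an inhibitor of cytokine receptor signalling. In vivo, microglia rarely adopt either end cleanly, and several of these genes are at very low level in adult microglia.

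Values are raw read counts and CPM, that is, reads scaled to 1 common library size with TMM factors for composition. Total counts lay between 8805804 and 19432075 per library. The 12 microglial markers, such as Cx3cr1, P2ry12 and Tmem119, were all above 0 in every library, and their summed CPM ranged from 738 to 1124 in WT libraries, from 2188 to 2816 in APP/PS1 libraries and from 1445 to 1807 in APP/PS1+N-AS libraries. The 10 oligodendrocyte markers summed to 2376 to 6722 CPM in WT, to 1875 to 4621 CPM in APP/PS1 and to 2818 to 3815 CPM in APP/PS1+N-AS, so transcripts of myelinating cells were present in every library. Reads of sex-linked genes also differed between groups, although only male mice are named in the methods of the study. Xist, the RNA of the inactive X chromosome in females, was near 0 in WT, at 33 to 37 reads, but reached 5253 to 11188 reads in APP/PS1. In APP/PS1+N-AS libraries 1, 2 and 3 it had 7024, 8848 and 29 reads. The 4 Y-linked genes Ddx3y, Uty, Kdm5d and Eif2s3y together had 1492 to 3700 reads in WT, whereas APP/PS1 had 13 to 690 and APP/PS1+N-AS had 470 to 2377. Sex composition and genotype therefore cannot be told apart in the comparisons with WT, and APP/PS1+N-AS library 3 differed from the other treated libraries. Reads of sex-linked genes were not balanced between APP/PS1+N-AS and APP/PS1 either. APP/PS1 3 and 4 had 8477 and 11188 Xist reads with 13 Y-linked reads each, whereas APP/PS1+N-AS 3 had 29 Xist and 2377 Y-linked reads.

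Of the members with a promoter in the RefSeq table (5 of 10: Il6, Il4ra, Cd80, Socs3 and Chil3), those of Il4ra and Socs3 are shown, because Il4ra was the 1 member among them that differed between groups and Socs3 had the highest level. Both span 250 bases before to 50 bases after the start that the RefSeq table uses, read 5′ to 3′ on the strand of the gene in build GRCm38.p6. Capitals mark TTCNNNGAA, the spacing bound by most STAT factors, the transcription factors downstream of cytokine receptors. The same ends set 4 bases apart are the spacing preferred by STAT6, the factor downstream of Il4ra. Both motifs read the same on either strand.
Il4ra promoter, chr7:125552021-125552320, plus strand: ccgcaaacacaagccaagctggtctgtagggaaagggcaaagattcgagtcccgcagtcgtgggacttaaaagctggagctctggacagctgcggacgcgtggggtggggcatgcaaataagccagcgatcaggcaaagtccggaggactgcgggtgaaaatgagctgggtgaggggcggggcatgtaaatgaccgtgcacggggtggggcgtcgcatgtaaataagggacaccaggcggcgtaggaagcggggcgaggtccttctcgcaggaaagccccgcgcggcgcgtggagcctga
Socs3 promoter, chr11:117969317-117969616, minus strand: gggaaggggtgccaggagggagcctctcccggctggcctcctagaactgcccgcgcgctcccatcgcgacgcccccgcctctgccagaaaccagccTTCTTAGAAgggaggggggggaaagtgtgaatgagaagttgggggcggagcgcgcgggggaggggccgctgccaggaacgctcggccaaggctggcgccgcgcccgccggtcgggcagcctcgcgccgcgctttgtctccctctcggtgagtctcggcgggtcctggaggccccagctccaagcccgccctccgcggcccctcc
The Socs3 window held 1 match, TTCTTAGAA, whose first base lies 154 bases before the start, and the Chil3 window held the same 9 letters, at 172 bases before its start. The Il6, Il4ra and Cd80 windows held no match to TTCNNNGAA, and the wider spacing had none in any of the 5. The starts of the tables differ for some genes. The Socs3 and Cd80 windows lie wholly within the GENCODE genes, downstream of the first base annotated there, so for these genes the window is a promoter only by the RefSeq start. Of the 32851 promoters of this length in the table, 8.3% held TTCNNNGAA and 6.95% held the wider spacing.

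The members fell into a group with more than 100 reads in the median library (4 of 10) and a group nearer the background. To compare genes, levels were divided by exon length (CPM per kb), and the 1432 olfactory and vomeronasal receptor genes, which microglia are not known to use, gave the level reached by genes not in use. The 95th percentile of these receptor genes was 0.121 to 2.31 CPM per kb, highest in WT 1. Socs3 had the highest level of the members, at a mean of 20.2 CPM per kb over the 10 libraries, followed by Il10ra at 12.9, and the ranges of the pair overlapped. Cd86 at 3.73 and Il4ra at 3.57 CPM per kb came next, and no library of Cd86 reached the lowest Il10ra value. Chil3 (1.04), Il6 (0.508), Cd80 (0.499), Arg1 (0.380), Nos2 (0.346) and Il10 (0.214 CPM per kb) followed, and from Il4ra downward the ranges over libraries of all neighbours in this order overlapped. Socs3 and Il10ra exceeded the receptor percentile in 10 of 10 libraries, and Cd86 and Il4ra exceeded it in 9, all but WT 1. Cd80 did so in 7, Chil3 in 6, Il6 in 5, Arg1 in 4, Nos2 in 3 and Il10 in 2 libraries.

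**Figure D1:**
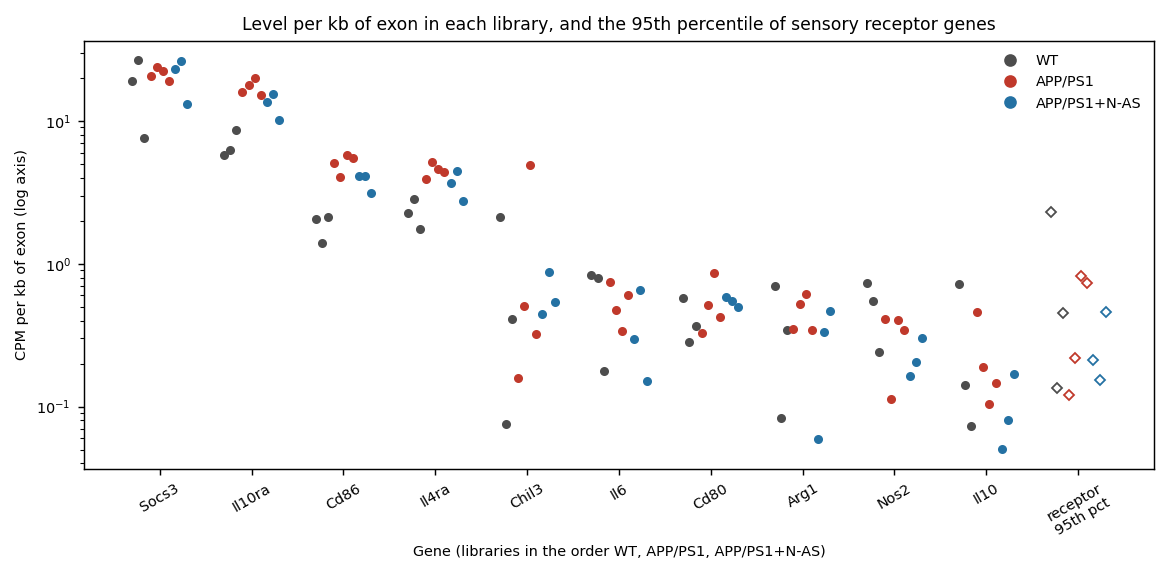
Level of each member in each library, as CPM per kb of exon on a log axis, with the 95th percentile of 1432 sensory receptor genes at the right (open diamonds). Points are libraries, coloured by group. Socs3 and Il10ra lay above the receptor level in all 10 libraries. The lowest values of Cd86 (1.40) and Il4ra (1.74) fell within the range of 0.121 to 2.31 that the receptor level spans. The 6 members from Chil3 to Il10 overlapped that range as well.

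Counting set a hard limit on 5 members. Only Socs3, Il10ra, Cd86, Il4ra and Cd80 had 10 or more reads in every library, and Il10, the gene of the regulatory cytokine IL-10 (chr1:131019845-131024974), had too few reads to pass the default count filter. It had 8, 3 and 2 reads in WT 1 to 3, 7, 3, 2 and 4 reads in APP/PS1 1 to 4, and 1, 2 and 3 reads in APP/PS1+N-AS 1 to 3. With 35 reads in all it is the 1 member left out of the edgeR test. In the alternative fit without that filter its log2 fold changes were -0.36 (SE 1.00) for APP/PS1 against WT and -1.11 (SE 1.05) for APP/PS1+N-AS against APP/PS1, with edgeR adjusted p-values of 0.919 and 0.835. Over each group the summed count corresponded to 0.287 CPM in WT (exact Poisson 95% interval 0.153 to 0.491), 0.270 CPM in APP/PS1 (0.154 to 0.438) and 0.126 CPM in APP/PS1+N-AS (0.0463 to 0.274). The intervals of the groups overlap, and no difference in Il10 was detected at this depth. These intervals cover counting error only and leave out the spread between libraries, which in WT 1 to 3 ran over 0.951, 0.186 and 0.0964 CPM. PCR copies without molecular identifiers are not independent molecules, so the counting error itself may be understated.

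**Figure D2:**
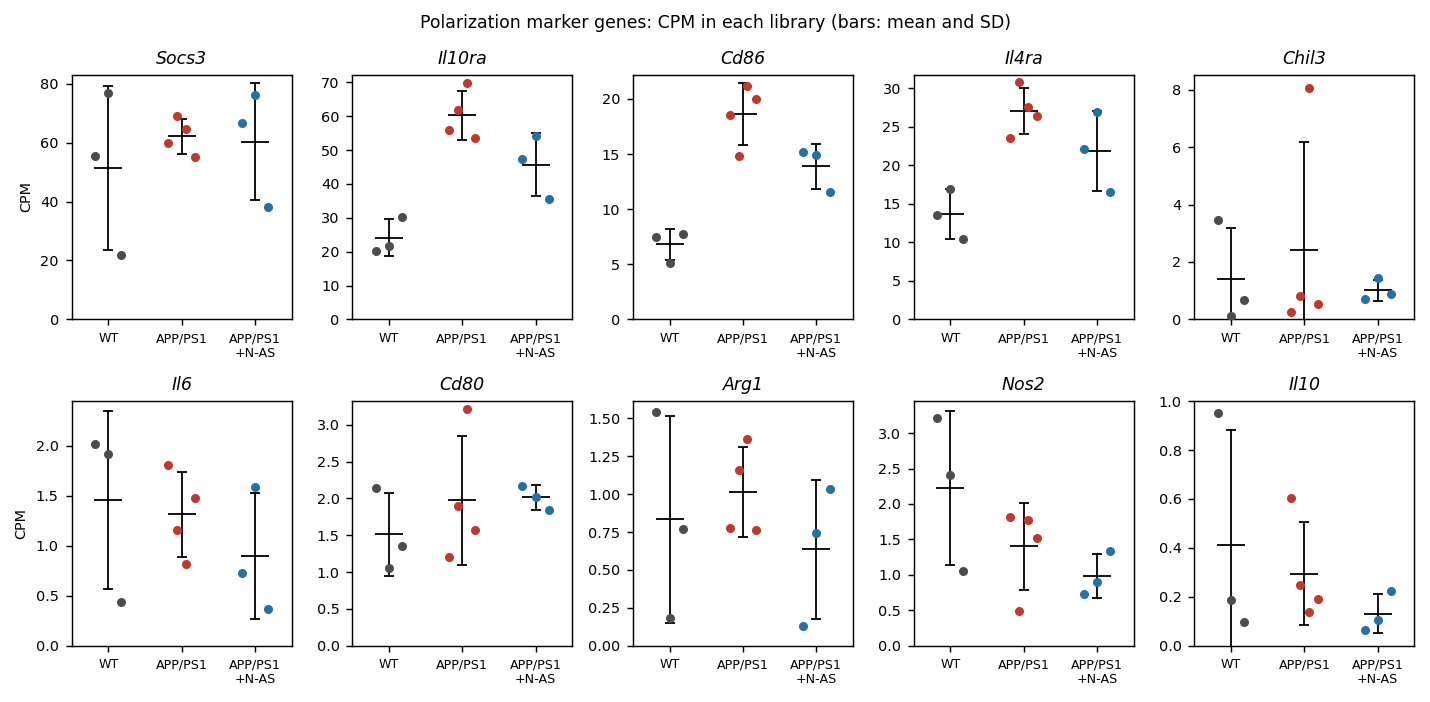
CPM of the 10 members in each library, by group, with a linear axis from 0 for each gene. Points are libraries and black bars are the mean and SD, with SD bars ending at 0 where they would pass below it. Il10ra, Cd86 and Il4ra were higher in each of the 4 APP/PS1 libraries than in each of the 3 WT libraries, and the 1 high Chil3 value of 8.06 CPM belongs to APP/PS1 3.

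To ask which members differ in microglia of the amyloid model, APP/PS1 was compared with WT. The receptor genes Il10ra and Il4ra and the co-stimulatory ligand gene Cd86 were higher in APP/PS1 by 2.49-fold, 1.98-fold and 2.75-fold, and no member was called lower. Of the 9 members tested, 3 were called higher at an adjusted p under 0.05 (edgeR quasi-likelihood test, Benjamini-Hochberg over 18727 genes), where 2.67% of all genes tested were called higher and 3.47% were called in either direction. The same 3 members did not overlap between the groups, a pattern met upward by 8.15% of all genes. The median log2 fold change was 0.41 over the 9 members and -0.07 over all genes tested.

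Il10ra encodes the ligand-binding chain of the IL-10 receptor and lies at chr9:45253837-45269149 on the minus strand. It had 20.3, 21.8 and 30.3 CPM in WT, 56.0, 61.9, 69.8 and 53.5 CPM in APP/PS1, and 47.2, 54.2 and 35.6 CPM in APP/PS1+N-AS. Every APP/PS1 library and every treated library exceeded every WT library. The group means were 24.1 ± 5.37 (SD, n = 3), 60.3 ± 7.22 (SD, n = 4) and 45.7 ± 9.41 CPM (SD, n = 3). For APP/PS1 against WT the log2 fold change was 1.31 (SE 0.19, edgeR adjusted p = 0.00427), and the 95% interval of the fold was 1.86 to 3.33. The annotation places the genes Mir7086 on the same strand and Gm20612 on the opposite strand within this locus, and how the counting used strand is not given in the sources used here, so their reads may be included.

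Cd86 encodes a ligand of CD28 and CTLA-4 on T cells, and lies at chr16:36603869-36666081 on the minus strand. It had 7.49, 5.14 and 7.76 CPM in WT, 18.6, 14.8, 21.2 and 20.0 CPM in APP/PS1, and 15.2, 14.9 and 11.5 CPM in APP/PS1+N-AS. The lowest APP/PS1 value was thus above the highest WT value, with 63 to 161 reads behind the WT values. The group means were 6.80 ± 1.44 (SD, n = 3), 18.6 ± 2.77 (SD, n = 4) and 13.9 ± 2.04 CPM (SD, n = 3), and for APP/PS1 against WT the log2 fold change was 1.46 (SE 0.20, edgeR adjusted p = 0.00311). The 95% interval of the fold was 2.03 to 3.72.

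Il4ra encodes the alpha chain shared by the receptors for IL-4 and IL-13, and lies at chr7:125552120-125579474 on the plus strand. It had 13.5, 17.0 and 10.5 CPM in WT, 23.5, 30.7, 27.5 and 26.3 CPM in APP/PS1, and 22.1, 26.9 and 16.5 CPM in APP/PS1+N-AS. The groups WT and APP/PS1 did not overlap, whereas APP/PS1+N-AS library 3 was below the highest WT library. The group means were 13.7 ± 3.25 (SD, n = 3), 27.0 ± 3.01 (SD, n = 4) and 21.8 ± 5.17 CPM (SD, n = 3), and for APP/PS1 against WT the log2 fold change was 0.99 (SE 0.21, edgeR adjusted p = 0.0259). This call was the least stable of the 3. It stood in 2 of 7 fits that left out 1 library each, and was lost without WT 1 (adjusted p = 0.0840), WT 3 (0.0534), APP/PS1 2 (0.0747), APP/PS1 3 (0.0761) or APP/PS1 4 (0.0695). Il10ra and Cd86 were called in 7 of 7 such fits. Gm44876 overlaps Il4ra on the opposite strand.

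With the Y-linked reads as a covariate, all 3 calls were lost, with log2 fold changes of 0.94 for Cd86, 0.91 for Il10ra and 0.52 for Il4ra and edgeR adjusted p-values of 0.868, 0.885 and 0.999. In that fit 3 of all genes tested were called, against 649 without the covariate. Y-linked reads did not overlap between WT and APP/PS1 libraries, so this fit cannot separate them from the group difference. No conclusion about the members is drawn from it. Libraries numbered 1 to 6 and 7 to 10 in the labels were also compared apart, although the labels name no batch. For this comparison the lower numbers hold WT 1 and 2 with APP/PS1 1 and 2, and the upper ones hold WT 3 alone with APP/PS1 3 and 4. The difference in mean log2 CPM was 1.48 in the lower and 1.01 in the upper numbers for Il10ra. It was 1.40 and 1.39 for Cd86 and 0.82 and 1.35 for Il4ra, in the same order. The direction was the same in both, but that of the upper numbers rests on WT 3.

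**Figure D3:**
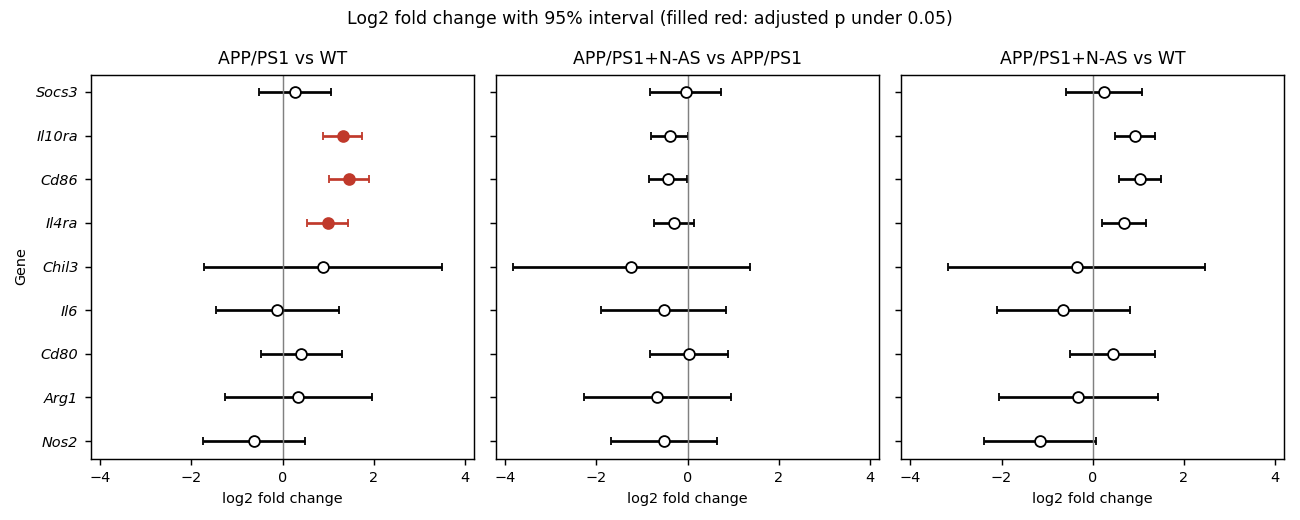
Log2 fold change of the 9 tested members in the 3 comparisons, with 95% intervals from the edgeR fit. Filled red points passed an adjusted p of 0.05. Il10ra, Cd86 and Il4ra passed in APP/PS1 against WT, no member passed in the other two comparisons, and Chil3 had the widest intervals.

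The microglial markers as a whole were higher in the same libraries. Of the 12 microglial markers, 9 were called higher in APP/PS1 than in WT and 0 lower, all 12 fold changes were positive, and their median log2 fold change was 1.39. When the mean log2 CPM of these markers was subtracted library by library, the difference between APP/PS1 and WT became 0.04 for Il10ra (exact permutation p = 0.314, two-sided, 4 against 3 libraries), 0.15 for Cd86 (exact permutation p = 0.543) and -0.30 for Il4ra (exact permutation p = 0.343). The smallest p that this design allows is 0.0286. Relative to the markers, Il10ra stood at -1.08 ± 0.03 in WT (SD, n = 3), -1.05 ± 0.05 in APP/PS1 (SD, n = 4) and -0.94 ± 0.12 in APP/PS1+N-AS (SD, n = 3) on the log2 scale. The marker mean itself rose by 1.29 from WT to APP/PS1, so a gene of constant CPM takes a negative difference on this scale. Nos2 had -1.92 between APP/PS1 and WT, the 1 member of 10 at the smallest p (exact permutation p = 0.0286, two-sided), with 6 to 39 reads per library. Before subtraction its difference was -0.63 (exact permutation p = 0.371, two-sided), at -1.40 in libraries 1 to 6 and 0.58 in libraries 7 to 10. It exceeded the receptor percentile in 3 of 10 libraries. On the marker scale the differences of the remaining 6 members were also negative, from -0.78 for Arg1 to -1.41 for Il10 (exact permutation p of 0.0571 or more). Cd86 stood at -2.89 ± 0.36, -2.74 ± 0.22 and -2.64 ± 0.08, and Il4ra at -1.90 ± 0.60, -2.20 ± 0.18 and -2.01 ± 0.16, in the same order of groups. Other cell type markers moved as well. The 10 oligodendrocyte markers had negative fold changes for 10 of 10, with a median of -1.30 and 3 called lower (Cnp, Ermn and Opalin). Of 8 astrocyte markers 2 were called higher (Gfap at 5.65 and S100b at 1.21 on the log2 scale). As a set the astrocyte markers did not rise, with 4 positive and 4 negative fold changes and a median of -0.05. The part of these cell types in the values of the members was not tested. Markers of other myeloid cells that can carry these receptors did not pass the edgeR test in this comparison, with 0 of 8 border macrophage markers (summed CPM 30.7 to 49.4 in WT and 25.8 to 53.5 in APP/PS1) and 0 of 6 monocyte markers called (55.3 to 100.9 and 77.0 to 153 CPM). Of the neutrophil markers 0 of 5 tested were called, but all 5 fold changes were positive, with a median of 2.15. Their summed CPM was 139.9 in APP/PS1 3, which also had the highest Il10ra and Cd86 values. Without that library the log2 fold changes were 1.25 for Il10ra and 1.41 for Cd86. The part of neutrophil RNA in these values was not tested. In RNA of bulk cells, a larger share of microglia and more RNA of a gene per microglial cell cannot be told apart.

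**Figure D4:**
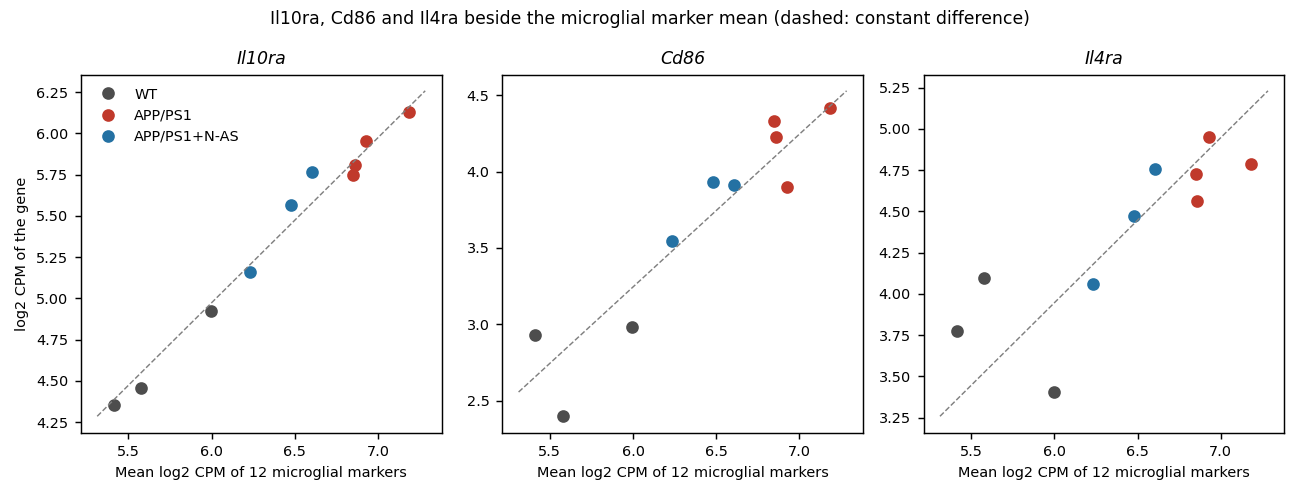
Log2 CPM of Il10ra, Cd86 and Il4ra (vertical axes) against the mean log2 CPM of 12 microglial markers (horizontal axes) in each library, coloured by group. The dashed line has a slope of 1, the position of a gene that keeps a constant difference from the markers. The Il10ra points lie close to the line in all 3 groups, and the Il4ra points of WT scatter most, with an SD of 0.60 on the log2 scale.

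The genes whose pattern over the 10 libraries was most like that of each member were ranked by the root mean square difference of centred log2 CPM, over 15954 genes with 10 or more reads in every library. For Il10ra these were Csf1r, the receptor for the macrophage growth factor CSF1 (0.07), Vav1 (0.10) and Nckap1l (0.10), where the median gene was at 0.67. Csf1r is also among the 12 markers above. For Cd86 they were Nckap1l (0.16), Btk (0.16) and Spi1 (0.17), the last being the gene of the myeloid factor PU.1, and Il10ra ranked 34 in the same order. For Il4ra they were Anxa3 (0.10), Rdh5 (0.11) and Cebpb (0.12), and for Socs3 they were Akap12 (0.11), Klf2 (0.12) and Ier3 (0.12), and Ier3 is an immediate early response gene. For Cd80 the 3 nearest were Knstrn (0.16), Orc1 (0.21) and 4933406J10Rik (0.22), at a median of 0.51 over all genes.

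Socs3, the feedback inhibitor induced by IL-10 and IL-6 through STAT3, lies at chr11:117966079-117970047 on the minus strand. It had 55.4, 76.9 and 21.8 CPM in WT, 60.0, 68.9, 64.6 and 55.1 CPM in APP/PS1, and 66.7, 76.2 and 38.0 CPM in APP/PS1+N-AS. WT 3 and APP/PS1+N-AS 3 were the lowest libraries, and the groups overlapped. Relative to the microglial markers, Socs3 stood at -0.16 ± 1.21 in WT (SD, n = 3). The 8 endothelial markers summed to 517 CPM in WT 3, against 1164 in WT 1 and 1410 in WT 2. The 8 neuron markers summed to 4859, 1438 and 1695 CPM in the same order. In APP/PS1+N-AS 3 the endothelial sum was 1045 CPM, against 998 and 1155 in the other treated libraries. The part of these cells in the Socs3 values was not tested. With 453 to 1438 reads in a library, counting was not what limited this gene. The means were 51.4 ± 27.7 (SD, n = 3), 62.1 ± 5.93 (SD, n = 4) and 60.3 ± 19.9 CPM (SD, n = 3). The log2 fold change of APP/PS1 against WT was 0.28 (SE 0.36, edgeR adjusted p = 0.751) with a 95% interval of the fold from 0.704 to 2.09, and without WT 3 it was -0.09.

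Cd80, the second ligand of CD28 and CTLA-4, lies at chr16:38455561-38496335. It was far below Cd86, at 14 to 47 reads per library. It had 2.14, 1.05 and 1.35 CPM in WT, 1.21, 1.90, 3.21 and 1.57 CPM in APP/PS1, and 2.17, 2.01 and 1.85 CPM in APP/PS1+N-AS. The groups overlapped, and the 95% interval of the fold for APP/PS1 against WT reached from 0.720 to 2.45 (log2 fold change 0.41, SE 0.40, edgeR adjusted p = 0.666). Il6, the gene of the inflammatory cytokine IL-6 (chr5:30013114-30019981), had 17, 31 and 9 reads in WT, 21, 14, 12 and 31 reads in APP/PS1, and 11, 30 and 5 reads in APP/PS1+N-AS. Its means were 1.46 ± 0.89 (SD, n = 3), 1.32 ± 0.43 (SD, n = 4) and 0.89 ± 0.63 CPM (SD, n = 3), and the fold for APP/PS1 against WT had an interval of 0.361 to 2.36. Neither gene was called in any comparison.

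Nos2 and Arg1 encode enzymes that compete for arginine, inducible nitric oxide synthase of the type 1 response and arginase-1 of the type 2 response. Nos2 (chr11:78920787-78960254) had 27, 39 and 22 reads in WT, 21, 6, 26 and 32 reads in APP/PS1, and 11, 17 and 18 reads in APP/PS1+N-AS. In CPM the means were 2.23 ± 1.09 (SD, n = 3), 1.40 ± 0.62 (SD, n = 4) and 0.99 ± 0.31 (SD, n = 3), and the groups overlapped. The log2 fold change of Nos2 was -0.64 (SE 0.51, edgeR adjusted p = 0.590) for APP/PS1 against WT and -1.15 (SE 0.56, edgeR adjusted p = 0.747) for APP/PS1+N-AS against WT. Its 2 highest CPM values were in WT 1 and WT 2, and WT 1 is the library with the highest receptor level. Per kb of exon, Nos2 stood at 0.315 times the receptor percentile in WT 1 but at 4.08 times that percentile in WT 2. Arg1 (chr10:24915221-24927484) had 13, 3 and 16 reads in WT, 9, 14, 20 and 16 reads in APP/PS1, and 2, 14 and 14 reads in APP/PS1+N-AS. Its means were 0.83 ± 0.68 (SD, n = 3), 1.02 ± 0.30 (SD, n = 4) and 0.64 ± 0.46 CPM (SD, n = 3). At such counts the 95% interval of the Arg1 fold for APP/PS1 against WT reached from 0.416 to 3.88, and a fold anywhere in that interval was not excluded at this depth.

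Chil3, which encodes the secreted chitinase-like protein Ym1, lies at chr3:106147554-106167564 on the minus strand. It had 29, 2 and 14 reads in WT, 3, 10, 118 and 11 reads in APP/PS1, and 11, 27 and 12 reads in APP/PS1+N-AS. In CPM the 118 reads of APP/PS1 3 were 8.06, the next highest library was WT 1 at 3.45, and the other 3 APP/PS1 libraries lay between 0.259 and 0.826. The log2 fold change of APP/PS1 against WT was 0.88 (SE 1.18, edgeR adjusted p = 0.762), and without APP/PS1 3 it was -1.27. For APP/PS1+N-AS against APP/PS1 it was -1.24 (SE 1.18, edgeR adjusted p = 0.798), and without APP/PS1 3 it was 0.91. Both directions of Chil3 therefore rested on 1 library. The size for APP/PS1 against WT also hung on WT 1, with its 29 reads, and without WT 1 it was 2.53. Chil4, a close paralog, had 0 to 35 reads, and reads shared by the copies may be split between them.

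In mice, Chil3 is known from neutrophil precursors as well as from type 2 macrophages. The neutrophil markers moved with it in APP/PS1 3, where 7 of 7 measured markers had their highest value of all libraries. Their summed CPM was 139.9 there, against 4.38 to 7.16 in the other APP/PS1 libraries, 5.30 to 13.9 in WT and 5.10 to 19.2 in APP/PS1+N-AS. Mpo, the myeloperoxidase of neutrophil granules, had 355 reads in APP/PS1 3 and at most 16 elsewhere. S100a9 had 558 reads against at most 160, and Ngp had 464 against at most 65. The part of neutrophil RNA in the Chil3 value was not tested.

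**Figure D5:**
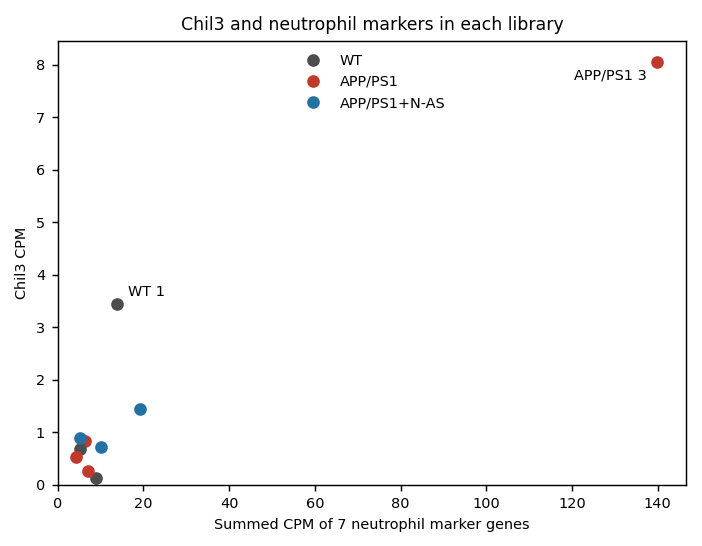
Chil3 CPM (vertical axis) against the summed CPM of 7 neutrophil marker genes (horizontal axis), 1 point per library, coloured by group. APP/PS1 3 stands alone with 8.06 CPM of Chil3 and 139.9 CPM of neutrophil markers, and in the other libraries the marker sum was at most 19.2 CPM.

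To ask whether treatment with N-AS altered the members, APP/PS1+N-AS was compared with APP/PS1. No member was called, and none separated the groups, as 12.7% of all genes tested did. The edgeR fit called 0 of the 18727 genes tested, which is 0.0%, with 895 genes higher and 758 lower at an unadjusted p under 0.05. DESeq2 called 79 genes and 0 members, but gave no adjusted p for Arg1, Cd80, Chil3, Il6 and Nos2. At an unadjusted p under 0.05 there was 1 member, Cd86, which was lower, as were 4.05% of all genes. Its log2 fold change was -0.42 (SE 0.19, edgeR adjusted p = 0.556). Il10ra had -0.40 (SE 0.18, edgeR adjusted p = 0.573) and Il4ra had -0.31 (SE 0.20, edgeR adjusted p = 0.684). The 95% intervals of the fold were 0.559 to 0.992 for Cd86, 0.573 to 1.00 for Il10ra and 0.597 to 1.10 for Il4ra, so the sizes of change inside these intervals were not excluded by the fit. Of the 9 members, 8 had a negative fold change, all but Cd80 at 0.03. The low members had wide intervals, such as 0.313 to 1.56 for Nos2, 0.206 to 1.92 for Arg1 and 0.268 to 1.79 for Il6.

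The microglial markers stood lower in treated libraries as well, with negative fold changes for 12 of 12, a median of -0.53 and 0 called. Relative to the marker mean, the differences of the 3 genes turned positive, at 0.10 for Il10ra, 0.10 for Cd86 and 0.19 for Il4ra (exact permutation p = 0.200, 0.600 and 0.257, two-sided, 3 against 4 libraries). Without APP/PS1+N-AS 3, the library without Xist, the fold changes of Cd86 and Il10ra were -0.30 and -0.24. With the replicate number as a block, the Cd86 log2 fold change was -0.37 (edgeR adjusted p = 0.704) and no longer had an unadjusted p under 0.05.

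In APP/PS1+N-AS compared with WT, 0 members were called by edgeR, where 35 genes (0.187%) were called, and 3 members were higher at an unadjusted p under 0.05, as were 3.64% of all genes. These were Cd86 (log2 fold change 1.03, SE 0.21, adjusted p = 0.111), Il10ra (0.92, SE 0.20, adjusted p = 0.160) and Il4ra (0.68, SE 0.22, adjusted p = 0.481). Cd86 and Il10ra were higher in each treated library than in each WT library, as were 4.9% of all genes. DESeq2 called both, with adjusted p-values of 0.00284 for Cd86 and 0.00814 for Il10ra, and edgeR called both when APP/PS1+N-AS 3 was left out, at 0.0426 and 0.0454. This comparison shares its WT libraries with the first one and its treated libraries with the second, so the 3 sets of values are not independent.

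Genes around the members were taken from lists of their pathways. Among 19 tested genes of the type 1 response to interferon gamma and bacterial products, 7 were higher in APP/PS1 than in WT and 0 lower, with a median log2 fold change of 0.67, where 2.67% of all genes were called higher. The 12 microglial markers rose in the same libraries, with the counts given above, and the part of that in this list was not tested. With Y-linked reads as a covariate only 3 of all genes tested were called, but those reads did not overlap between WT and APP/PS1 libraries. Il1b, the inflammatory cytokine, rose by a log2 fold change of 2.30 (SE 0.41, edgeR adjusted p = 0.0135), from 3.50 ± 0.88 to 17.0 ± 6.79 CPM (SD, n = 3 and 4). Irf5, a transcription factor of inflammatory macrophages, rose by 1.28 (SE 0.23, edgeR adjusted p = 0.0140), and the interferon gamma receptor chain Ifngr1 rose by 0.67 (SE 0.13, edgeR adjusted p = 0.0200). The type 2 list had 12 tested genes of 18, of which 0 were called by edgeR and 4 had an unadjusted p under 0.05, all upward (8.3% of all genes), with a median of 0.23. Il13ra1, the partner of Il4ra in the IL-13 receptor, had 0.69 (SE 0.19, adjusted p = 0.0782) and Stat6 had 0.52 (SE 0.18, adjusted p = 0.160).

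Along the IL-10 and IL-6 pathways, 1 of 15 genes was called in APP/PS1 against WT, where 3.47% of all genes tested were called. The called gene was Il6ra, the IL-6 receptor, which rose by a log2 fold change of 0.77 (SE 0.16, edgeR adjusted p = 0.0294). Il10rb, the second chain of the IL-10 receptor, had 0.68 (SE 0.17, adjusted p = 0.0604), from 19.0 ± 4.17 CPM (SD, n = 3) to 30.3 ± 2.68 CPM (SD, n = 4). Of the tested genes in the list of other co-stimulatory and co-inhibitory ligands and receptors, 0 of 7 were called by edgeR at adjusted or unadjusted p under 0.05, and Cd274, the gene of PD-L1, had 0.44 (SE 0.46, adjusted p = 0.687). In arginine metabolism 0 of 12 genes were called, with 1 gene in each direction at an unadjusted p under 0.05. Of all 18727 genes tested, 1554 were higher and 1667 lower at that unadjusted threshold. Odc1, which makes polyamines from the product of arginase, had 0.49 (SE 0.13, adjusted p = 0.0736), and Gatm, which uses arginine for creatine, had -1.03 (SE 0.28, adjusted p = 0.0810). The chitinase list had 0 of 3 called. In APP/PS1+N-AS against APP/PS1 the edgeR fit called 0 of the 18727 genes tested, and so no gene of any of the 6 lists. The medians of all 6 lists were negative, from -0.10 to -1.34. Beside these stand the medians of all genes, -0.07 for APP/PS1 against WT and -0.01 for APP/PS1+N-AS against APP/PS1.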

How the data were processed

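Microglial RNA of 10 libraries was sequenced after removal of ribosomal RNA (SMARTer Stranded kit, paired reads). The authors used TopHat for alignment, and the deposited values are unnormalized counts of reads for each gene symbol, 1 file per library, and the submitters' processing notes name mm10 and edgeR. Versions, annotation and strand setting are not given in the sources used here. The files hold 24481 lines for 24421 symbols, and 103 lines sharing 43 symbols were summed. From these deposited counts, edgeR 4.0.16 in R 4.3.3 (filterByExpr, TMM, glmQLFit, glmQLFTest, 3 groups, all 10 libraries, no covariate) tested 18727 genes with Benjamini-Hochberg adjustment at 0.05, after being tested on simulated data. Log2 CPM used a prior count of 2. Intervals are 95%.

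Members and lists were chosen with earlier results of these data known. Named genes are the 10 members, their 3 nearest patterns and at most 3 genes per pathway list with the lowest p. Coordinates, exon lengths and overlaps come from GENCODE M21 (GRCm38), promoters from RefSeq, both of the build mm10 names. Replicate numbers come from the labels. After removal of group means, same-numbered APP/PS1+N-AS and APP/PS1 libraries correlated at 0.142 to 0.309 and so pair by that measure, but differently numbered ones within library numbers 1 to 6 or 7 to 10 correlated as much (0.173 to 0.320), whereas those of APP/PS1 and WT (-0.485 to 0.441) and of APP/PS1+N-AS and WT (-0.136 to 0.348) do not. Libraries of a group differed beyond sampling noise (chi-square per degree of freedom 10.6 to 100.3 over 12 pairs). No source says whether libraries of a group hold different mice, so p-values measure the spread between these samples. Alternatives were DESeq2 1.42.0, other scalings, filters, covariates and sample sets.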

Additional observations from a re-analysis of the deposited data

Results flagged for a closer look

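Chil3 in APP/PS1 3, at 8.06 CPM, stood apart from the other 3 APP/PS1 libraries, with a gap to the nearest of them that was 0.927 of the range of the group, above Dixon's critical value for 4 samples. The summed CPM of neutrophil markers in the same library, 139.9, stood apart in the same way, at 0.980 of the range. Groups of APP/PS1 were tested in 19 such measures, and chance alone is set to give about 1 in 20. Without this library the log2 fold change of Chil3 changed sign in both comparisons with APP/PS1, from 0.88 to -1.27 and from -1.24 to 0.91. The contribution of neutrophil RNA to the Chil3 reads was not tested.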

How the results depend on the processing

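The calls of Il10ra, Cd86 and Il4ra in APP/PS1 against WT held in 10 of 11 alternatives other than leaving out single libraries, and ended with Y-linked reads as a covariate (0 members, 3 genes). Those reads did not overlap between WT and APP/PS1 libraries, so that fit cannot separate them from the group difference. Genes called in APP/PS1 against WT, 649 as reported, were 1345 by DESeq2, 326 with the replicate block, 1055 with the library set as a covariate, 410 with only the 2 groups compared, and 299 to 923 with 1 library left out. In APP/PS1+N-AS against APP/PS1 DESeq2 called 79 and leaving out 1 library gave 0 to 1. In APP/PS1+N-AS against WT, 35 as reported, the counts were 188 by DESeq2, 5 with the replicate block, 64 with the library set, 2 with only the 2 groups compared, 16 with background reads as a covariate, 1 with Y-linked reads, and 1 to 116 with 1 library left out. Members called there were 2 by DESeq2 and 0 to 2 with 1 library left out. The replicate block changed no call of a member.

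Signs changed for uncalled members. With the replicate block, Il6 in APP/PS1 against WT was 0.0092, Cd80 in APP/PS1+N-AS against APP/PS1 was -0.039 and Chil3 in APP/PS1+N-AS against WT was 0.020. With the library set as a covariate Il6 in APP/PS1 against WT was 0.30. With Y-linked reads, Cd80, Socs3 and Chil3 in APP/PS1 against WT were -0.059, -0.52 and -0.84, Socs3 was 0.22 and -0.30 in treated mice against APP/PS1 and WT, and Arg1 in APP/PS1+N-AS against WT was 0.18. With background reads as a covariate, Chil3 was 0.13 and 1.81 in treated mice against APP/PS1 and WT, and Arg1 against WT was 0.30. By total counts and by upper-quartile factors Cd80 in APP/PS1+N-AS against APP/PS1 was -0.044 and -0.014. Leaving out 1 library gave, for APP/PS1 against WT, -0.15 to 1.04 for Arg1, -0.57 to 0.19 for Il6, -0.087 to 0.71 for Socs3 and -1.27 to 2.53 for Chil3. For APP/PS1+N-AS against APP/PS1 it gave -0.14 to 0.36 for Cd80, -0.25 to 0.21 for Socs3 and -1.60 to 0.91 for Chil3, and against WT -0.81 to 0.37 for Arg1, -0.13 to 0.67 for Socs3 and -0.92 to 1.29 for Chil3. Relative to the microglial markers, in APP/PS1 against WT, Il4ra was -0.30, and the uncalled Arg1, Cd80, Socs3 and Chil3 were -0.78, -0.97, -0.84 and -0.89, negative where their fold changes were positive. The marker mean, which is subtracted on that scale, rose by 1.29 in the same comparison. The causes were not tested. The covariates of background and Y-linked reads, the marker-relative scale and Chil3 without APP/PS1 3 were chosen after seeing the data. Depth limits Il10 and the members under 10 reads in some library.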
